A study of Mus musculus with 4 samples.

Results

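Siglecs and inhibitory paired receptors were examined in leukaemic mouse spleen cells cultured with R848, a small synthetic compound known to activate TLR7 and TLR8, or with vehicle. The set was fixed by gene name and held 10 genes of the 28074 symbols in the expression table: Siglec1, Siglece, Siglecg, Cd33, Sirpa, Pirb, Lilrb4, Cd300lf, Cd200r1 and Cd47. Pirb was found under its older symbol Lilrb3, as RefSeq pairs them, and the other 9 genes under their own names. Cd47 had 2 rows, of which the row with the highest mean was used, and the other row lay at or below 0.44 on the log2(FPKM + 1) scale in every sample.

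The R848 group (n = 2) and the control group (n = 2) came from the same 2 animals, mice 4050 and 4182, whose cells were divided between 10 µg/ml R848 and an equal volume of vehicle for 3 days. All 4 samples carried floxed Dnmt3a, the internal tandem duplication of Flt3 on both alleles and Mx1Cre, written as Dnmt3afl/fl, Flt3ITD/ITD in the source label and also as Dnmt3a+/- in the protocol, a conflict that was not resolved here. Mx1Cre is known as a Cre recombinase under the interferon-inducible Mx1 promoter, which acts in blood cells and in other tissues. Ages were not given, and medium with SCF, IL6 and IL3 was used for all samples.

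Cells of the immune system carry receptors in matched sets, in which an inhibitory form bears ITIM motifs in its tail and a close relative without them couples to an activating adaptor such as DAP12. When an inhibitory receptor binds its ligand, SRC-family kinases phosphorylate the ITIMs, which then recruit the phosphatases SHP-1 and SHP-2. Siglecs bind sialic acid on cell surfaces, PirB binds MHC class I, SIRPα binds CD47 and CD200R1 binds CD200. CD47 is therefore the ligand in the set, known as a signal against engulfment. Siglec1, also called sialoadhesin, lacks ITIMs and serves as an adhesion receptor of macrophages.

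The values are linear FPKM as the authors named them, 1 per gene and sample, and differences are R848 minus control on the log2(FPKM + 1) scale, which understates changes of low genes. Linear sums per sample ran from 958275 to 962001 with R848 and from 950530 to 955395 in control. Depth is not known, since the table holds no counts. Genes of myeloid precursors were abundant in all samples, for example Mpo at 1281 and 1052 FPKM with R848 and at 1475 and 1533 FPKM in control, for mice 4050 and 4182. The direction of Mpo was not that of its list of 10 leukaemic progenitor markers. Of these, 4 were higher in both mice, 3 were lower in both and 3 changed in opposite directions. The list summed to 8776 and 8902 FPKM with R848, against 7496 and 8199 FPKM in control. Summed markers of red cells stayed at or below 3.62 FPKM. The cells were not sorted as far as the labels say, and in bulk RNA fewer cells of a type and less RNA per cell cannot be told apart.

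With R848, Siglece was higher in both mice and passed the test, and Siglec1 and Pirb were higher in both mice and passed once the mouse was a block in the fit. By limma over 12612 genes with Benjamini-Hochberg adjustment, 1 of the 10 genes rose and 0 fell at an adjusted p under 0.05, where 1.85% of all genes tested did either (1.47% rose and 0.381% fell). In the blocked fit 3 rose and 0 fell, against 5.3% of all genes (3.4% rose and 1.9% fell). Among these 3, Siglec1 entered the test only through its R848 values, as described below. At an unadjusted p under 0.05 by limma 3 were higher and 1, Cd200r1, was lower. The groups did not overlap for these 4 genes, as for 42.2% of all genes tested. With no filter on low values limma called 0 of 21710 genes tested, while 1880 had an unadjusted p under 0.05, among them 3 of the 10 with a positive and 1 with a negative difference. The median difference of the 10 genes was 0.01, beside -0.08 for all genes tested. Of the 10, 4 were higher in both mice, 2 were lower in both and 4 changed in opposite directions in the mice.

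**Figure D1:**
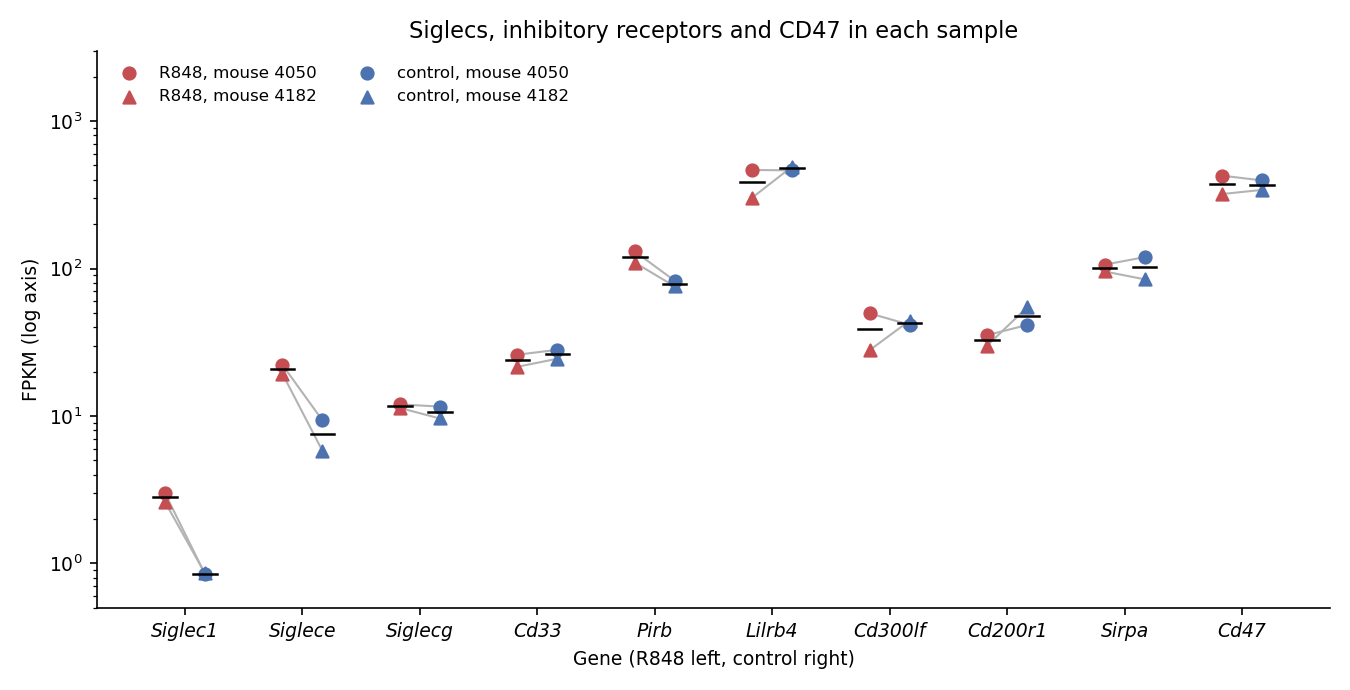
FPKM of the 10 genes (log axis) in each sample, R848 left and control right of each gene, with the 2 samples of a mouse joined by a line and black bars at the group means. Siglec1, Siglece and Pirb lay higher in both R848 samples than in both controls, Cd200r1 lay lower, and the groups overlapped for the other 6 genes.

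The Siglecs differed among themselves. Siglece encodes Siglec-E, an ITIM-bearing lectin of mouse neutrophils, monocytes and macrophages. It had 22.2 and 19.3 FPKM with R848, against 9.36 and 5.81 FPKM in control (mice 4050 and 4182). Both R848 samples lay above both controls, and the ratio of the group means was 2.74. The log2 difference was 1.37 (SE 0.24, 95% interval 0.81 to 1.94, limma adjusted p = 0.0391), with 1.16 in mouse 4050 and 1.58 in mouse 4182. With the mouse as a block the limma adjusted p was 0.00111. Without the block the call ended after quantile normalization (adjusted p = 0.0874), after median log ratio scaling (0.0732), with no filter (0.318) and with a constant variance prior (0.059), and with the block it passed after quantile normalization (0.00847) and after median log ratio scaling (0.00498). Without the block it also ended when the control of mouse 4182 (adjusted p = 0.0795), the R848 library of mouse 4050 (0.258) or that of mouse 4182 (0.247) was left out. The difference stayed between 1.07 and 1.67 in all 13 alternatives tried.

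Siglec1 was the lowest of the set. It had 3.00 and 2.61 FPKM with R848, against 0.849 and 0.858 FPKM in control. The R848 samples lay above the controls in each mouse, at 3.29 times the control mean. Both controls were under the mean of 1 FPKM that a gene needed to be tested, so Siglec1 entered the test through its R848 values. Its log2 difference was 1.04 (SE 0.23, 95% interval 0.50 to 1.58), and it did not pass (limma adjusted p = 0.0909) unless the mouse was a block (adjusted p = 0.0305) or the variance prior was constant (0.0494). With a pseudocount of 0.1 in place of 1 the difference was 1.61.

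Siglecg and Cd33 gave differences near 0. Siglecg encodes Siglec-G, an ITIM receptor best known on B cells, and had 12.0 and 11.3 FPKM with R848, against 11.6 and 9.62 FPKM in control. Cd33, whose human counterpart is a surface target in myeloid leukaemia, had 26.1 and 21.6 FPKM with R848, against 28.1 and 24.4 FPKM in control. The R848 and control values overlapped for both genes. The log2 differences were 0.13 for Siglecg (95% interval -0.31 to 0.58, limma adjusted p = 0.86) and -0.14 for Cd33 (95% interval -0.57 to 0.29, limma adjusted p = 0.839). A rise as large as that of Siglece lay outside both intervals. The 5 tested B cell markers were higher in both mice, while the Siglecg difference lay near 0. By limma 3 of the 5 rose, Ms4a1 and Cd79a among them, where 1.47% of all genes did. With the mouse as a block 4 rose, where 3.4% of all genes did. Cd22, the marker not called in either fit, had 0.705 and 0.401 FPKM in control. Cd22 was thus tested only through its R848 values. The 10 markers summed to 45.2 to 45.5 FPKM with R848 and 15.5 to 17.7 FPKM in control. Their part in the Siglecg values was not tested.

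These Siglec genes lie together. On GRCm38 chromosome 7, Siglecg spans 43408204 to 43418358, Cd33 43524216 to 43544428 and Siglece 43651070 to 43660161, so the 3 genes fit into 252 kb. Within that stretch the change of Siglece exceeded that of Cd33 by 1.27 in mouse 4050 and 1.75 in mouse 4182, on the log2(FPKM + 1) scale. It exceeded that of Siglecg by 1.12 and 1.36. Siglecf, an eosinophil and macrophage lectin of the same family that is not among the 10, was listed as Siglec5 and had 21.2 and 24.2 FPKM with R848, against 14.0 and 9.75 FPKM in control. Its log2 difference was 0.90 (limma adjusted p = 0.117, and 0.0242 with the mouse as a block, a call that ended after quantile normalization in that fit at 0.0653). Siglec1 lies apart from this group, on chromosome 2 at 131069220 to 131086765.

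Most tested markers of macrophages moved in the same direction as Siglece and Siglec1. Of 9 tested, 6 were higher in both mice, 2 were lower in both and 1 changed in opposite directions. By limma 4 rose and 0 fell (Adgre1, Fcgr1, C1qb and C1qc), and 1 was lower at an unadjusted p under 0.05. With the mouse as a block 6 rose and 0 fell. Over all genes tested 1.47% rose by limma and 3.4% with the block. All 10 matched markers summed to 662 and 775 FPKM with R848, against 330 and 290 FPKM in control. Mertk had a log2 difference of 0.14, Cd68 had -0.35, and Vsig4 stayed at or below 0.599 FPKM. Of 5 tested eosinophil markers 0 were called by limma (1 higher at an unadjusted p under 0.05, Siglecf itself), and in the blocked fit 2 rose (Siglecf and Prg2) and 1 fell (Ear2). The list summed to 835 and 327 FPKM with R848, against 420 and 187 FPKM in control. The 10 neutrophil markers, of which 0 were called by limma (1 lower at an unadjusted p under 0.05), summed to 92050 and 50500 FPKM with R848, against 81210 and 64630 FPKM in control. The part of these cell types in the differences of Siglece, Siglec1 and Siglecf was not tested.

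Of the receptors outside the Siglec family, only Pirb passed a test, and only in the blocked fit or in that fit after median log ratio scaling. Pirb encodes PirB, an ITIM receptor for MHC class I on myeloid and B cells, and lies on chromosome 7 at 3711409 to 3720391. It had 131 and 110 FPKM with R848, against 82.6 and 75.7 FPKM in control. The groups did not overlap, and the R848 mean was 1.52 times the control mean. The log2 difference was 0.59 (SE 0.16, 95% interval 0.21 to 0.98, limma adjusted p = 0.18), with 0.65 in mouse 4050 and 0.53 in mouse 4182. With the mouse as a block it passed (limma adjusted p = 0.0392), also after median log ratio scaling (0.037) but not after quantile normalization (0.0702). Pirb belongs to a cluster of near-identical Pir genes, so how reads were divided among its copies is uncertain.

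Lilrb4 encodes the inhibitory receptor gp49B (now Lilrb4a) and had the highest mean level of the set in both groups. It had 466 and 303 FPKM with R848, against 463 and 492 FPKM in control. The R848 sample of mouse 4182 was low and that of mouse 4050 lay between the controls. The log2 difference was -0.35 (95% interval -0.86 to 0.17, limma adjusted p = 0.628), with 0.01 in mouse 4050 and -0.70 in mouse 4182. Gp49a, its near-identical neighbour without ITIMs, had 432 and 257 FPKM with R848, against 405 and 478 FPKM in control, and reads of the pair cannot be told apart with certainty.

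Cd300lf encodes CD300LF, an ITIM receptor that binds phospholipids on dying cells. It had 49.7 and 28.0 FPKM with R848, against 41.6 and 44.3 FPKM in control. The R848 samples lay on either side of the controls, with log2 differences of 0.25 in mouse 4050 and -0.65 in mouse 4182 (mean -0.20, 95% interval -0.81 to 0.42, limma adjusted p = 0.844). The mean difference turned to 0.21 when the R848 library of mouse 4182 was left out. Both Lilrb4 and Cd300lf were lowest in that sample, which also had the lowest sum of neutrophil markers (50500 FPKM). Its part in these values was not tested.

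Cd200r1 encodes the receptor for CD200, which carries no ITIM and signals through the adaptor Dok2. It had 35.3 and 30.0 FPKM with R848, against 41.4 and 54.5 FPKM in control. Both R848 samples lay below both controls, and the R848 mean was 0.681 of the control mean. The log2 difference was -0.53 (SE 0.19, 95% interval -0.99 to -0.07), with -0.22 in mouse 4050 and -0.84 in mouse 4182, and it did not pass over all genes (limma adjusted p = 0.335, and 0.15 with the mouse as a block). Its ligand gene Cd200 was low, at 2.32 and 0.802 FPKM with R848 and 3.13 and 1.31 FPKM in control, and its adaptor gene Dok2 had a log2 difference of -0.11 (limma adjusted p = 0.934).

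**Figure D2:**
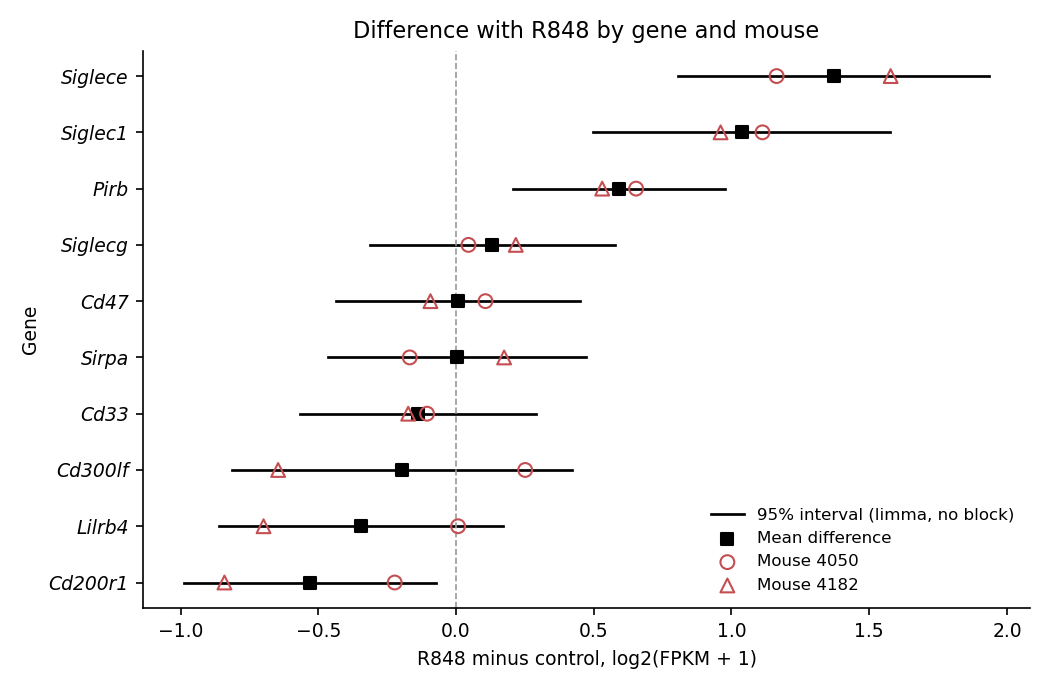
R848 minus control on the log2(FPKM + 1) scale for each gene, with the mean (square), its 95% interval from limma without a block (line) and each mouse (open symbols). The intervals of Siglece, Siglec1 and Pirb lay above 0, that of Cd200r1 lay below 0, and the other 6 spanned 0.

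For CD47 and SIRPα the mean differences were close to 0. Sirpa, the myeloid receptor for CD47, had 106 and 95.6 FPKM with R848, against 119 and 84.6 FPKM in control. Cd47 had 427 and 320 FPKM with R848, against 396 and 342 FPKM in control. Each gene was higher with R848 in 1 mouse and lower in the other. The log2 differences were 0.00 for Sirpa (95% interval -0.47 to 0.47, limma adjusted p = 0.999) and 0.01 for Cd47 (95% interval -0.44 to 0.45, limma adjusted p = 0.995), with signs that turned under quantile normalization (-0.02 and -0.04). Within a sample Cd47 exceeded Sirpa by 2.00 and 1.73 with R848 and by 1.72 and 2.00 in control on the log2(FPKM + 1) scale. Qpctl, the enzyme known to modify CD47 for SIRPα binding, had a log2 difference of -0.02 (limma adjusted p = 0.987).

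The order of the levels, which FPKM allows since it is scaled by length, differed between the groups in few places. How transcripts were combined into genes is not given in the sources used here, and Ptprc, which encodes the leukocyte surface protein CD45, had no more than 2.31 FPKM with R848 and 2.69 FPKM in control, so levels of different genes are compared with that limit. With R848 the means were 384 ± 115 FPKM for Lilrb4, 373 ± 75.2 for Cd47, 120 ± 14.7 for Pirb, 101 ± 7.54 for Sirpa, 38.8 ± 15.3 for Cd300lf, 32.7 ± 3.77 for Cd200r1, 23.8 ± 3.17 for Cd33, 20.8 ± 2.03 for Siglece, 11.7 ± 0.455 for Siglecg and 2.81 ± 0.271 for Siglec1 (SD, n = 2). In control they were 478 ± 20.0 FPKM for Lilrb4, 369 ± 38.6 for Cd47, 102 ± 24.7 for Sirpa, 79.1 ± 4.90 for Pirb, 48.0 ± 9.29 for Cd200r1, 42.9 ± 1.94 for Cd300lf, 26.3 ± 2.58 for Cd33, 10.6 ± 1.39 for Siglecg, 7.59 ± 2.51 for Siglece and 0.853 ± 0.00598 for Siglec1 (SD, n = 2). Neighbours whose samples overlapped were, with R848, Lilrb4 and Cd47, Cd300lf and Cd200r1, and Cd33 and Siglece, and in control Cd200r1 and Cd300lf. Siglece thus stood above Siglecg in both R848 samples and below it in both controls, and Pirb and Sirpa changed places in the same sense. Of the summed FPKM of the set, Lilrb4 held 36.5% and 32.2% with R848 and 38.8% and 43.4% in control, and Pirb held 10.2% and 11.7% with R848 and 6.92% and 6.68% in control.

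Promoter sequences are shown for Siglece and Pirb, which passed upward in the blocked fit and have an entry in the RefSeq promoter table. Entries existed for 6 of the 10 genes. Each run gives the 250 bases before the annotated start on the gene's strand (GRCm38.p6), Siglece from chr7:43660162-43660411 and Pirb from chr7:3720383-3720632, both on the minus strand. Capitals mark the match to a motif searched.
Siglece: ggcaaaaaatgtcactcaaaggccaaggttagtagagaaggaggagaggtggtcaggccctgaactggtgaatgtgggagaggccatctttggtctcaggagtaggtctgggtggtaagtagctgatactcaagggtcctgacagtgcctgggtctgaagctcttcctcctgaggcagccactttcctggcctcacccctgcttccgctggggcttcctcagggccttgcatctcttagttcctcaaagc
Pirb: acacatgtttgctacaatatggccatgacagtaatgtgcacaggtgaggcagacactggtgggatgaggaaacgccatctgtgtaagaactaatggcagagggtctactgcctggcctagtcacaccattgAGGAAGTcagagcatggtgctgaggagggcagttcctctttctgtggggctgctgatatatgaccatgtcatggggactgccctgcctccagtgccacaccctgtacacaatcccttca

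The motifs were searched on both strands. The ETS core of PU.1, AGGAAGT, was found 119 bases before the start of Pirb and in 7.7% of 32536 distinct promoter windows of that length. The core of the interferon response element, GAAANNGAA (7.15% of windows), the gamma-activated site TTCNNNGAA (7.04%), the core of the NF-kB site, GGANNTTCC (3.59%), the AP-1 site TGANTCA (6.73%), the CEBP site TTGCNNAA (9.57%) and the TATA box TATAAA (12.3%) had no match in either window. Of the other 4 genes with an entry, Cd300lf had a match to the interferon element 144 bases and to the TATA box 28 bases before its start, and Siglecg, Cd33 and Cd47 had none. A match is a description of these letters, and the absence of one says only that they are not in this window.

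Inhibitory receptors were next set beside family relatives without ITIMs, as the difference of log2(FPKM + 1) within each sample. These 7 pairs were chosen with the values known, and with 2 samples a group an exact test of a single value could not go below p = 0.333, so they are described without a test. Pirb exceeded Lilra6, an activating member of the Pir group, by 3.40 and 3.18 with R848, against 1.56 and 1.91 in control. The R848 samples lay above the controls. Lilra6 itself had 11.4 and 11.3 FPKM with R848, against 27.3 and 19.4 FPKM in control, a log2 difference of -0.96 (limma adjusted p = 0.0878, and 0.0118 with the mouse as a block, or 0.0517 with the block after quantile normalization). Pirb exceeded Pira2, another activating copy, by 3.03 and 1.88 with R848, against 1.94 and 1.60 in control, which overlapped. How reads were divided among the near-identical Pir genes is uncertain, and its part in these differences was not tested.

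Cd300lf exceeded Cd300lb, an activating DAP12-linked relative, by 1.29 and 0.33 with R848, against 0.27 and -0.04 in control. Cd300lb was lower in both mice, with log2 values of 4.37 and 4.53 with R848, against 5.14 and 5.54 in control (difference -0.89, limma adjusted p = 0.0876, and 0.00802 with the block). Cd200r1 exceeded Cd200r4, a gene of low level, by 2.60 and 3.52 with R848, against 4.61 and 4.29 in control. This pair moved the other way in both mice, but not through the same gene. In mouse 4050 the pair changed by -2.02 and Cd200r1 itself by -0.22, so most of that shift lay in Cd200r4. In mouse 4182 the pair changed by -0.77 and Cd200r1 itself by -0.84. Sirpa against Sirpb1c, Cd300lf against Cd300ld and Lilrb4 against Gp49a moved in opposite directions in the mice.

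**Figure D3:**
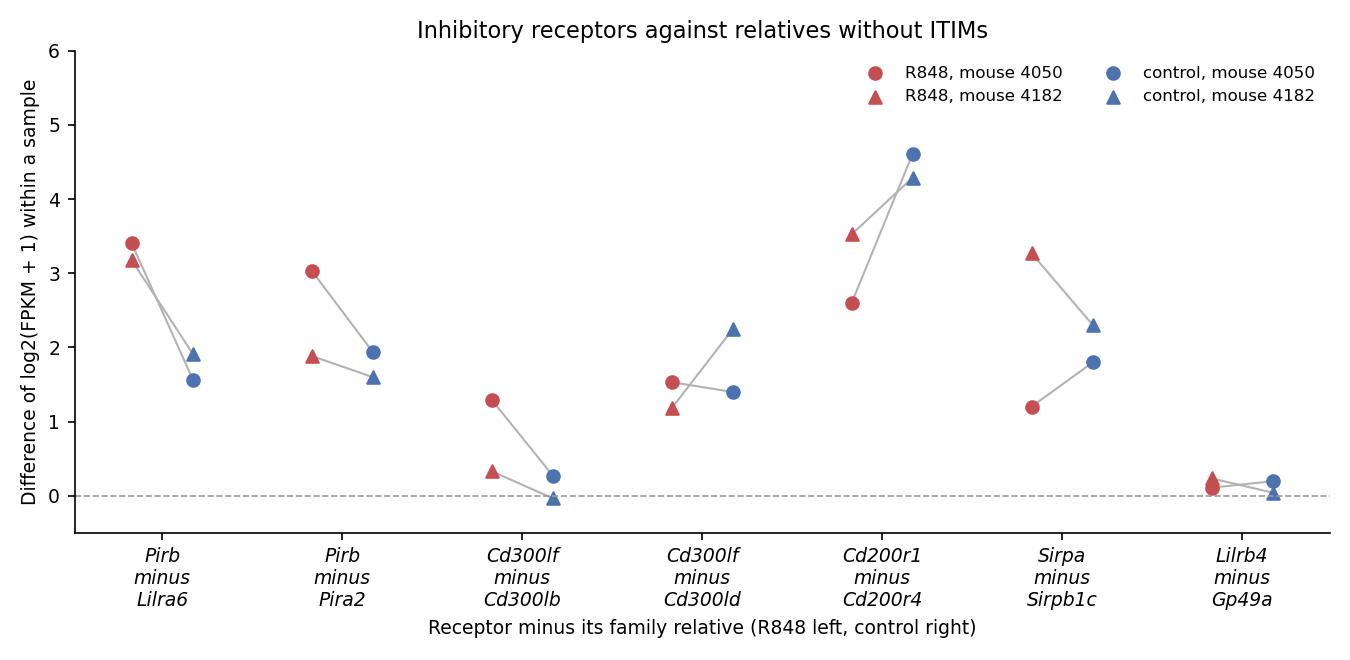
Difference of log2(FPKM + 1) between a receptor and a family relative within each sample, R848 left and control right, with the samples of a mouse joined. Pirb minus Lilra6 was 3.40 and 3.18 with R848 and 1.56 and 1.91 in control. Cd200r1 minus Cd200r4 was lower with R848 in both mice, with a change of -2.02 in mouse 4050, mostly in the low Cd200r4, and of -0.77 in mouse 4182.

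The wider family was read from the same fits. For it and the lists below, the shares over all genes tested were 1.85% without the block and 5.3% with it, both directions counted. Among 19 tested other inhibitory receptors 1 rose and 0 fell by limma, and 5 rose and 1 fell in the blocked fit, with a median log2 difference of 0.10. Pdcd1, which encodes the checkpoint receptor PD-1, rose to 4.45 and 6.44 FPKM with R848, against 0.47 and 0.712 FPKM in control (log2 difference 2.00, limma adjusted p = 0.0134). Both controls were under 1 FPKM, so Pdcd1, like Siglec1, was tested through its R848 values, and a pseudocount of 0.1 gave a difference of 3.00. T cell markers moved beside it: of 7 tested 3 rose and 0 fell by limma, and the 10 markers summed to 102 and 117 FPKM with R848, against 48.2 and 84.4 FPKM in control. Their part in the Pdcd1 values was not tested. The Pdcd1 call ended after quantile normalization (adjusted p = 0.0563) and on leaving out either R848 sample (0.155 without mouse 4182 and 0.059 without mouse 4050). The others that passed with the block were Siglecf, Cd72 (1.16, adjusted p = 0.00498), Pilra (0.88, 0.00729) and Clec4a2 (0.58, 0.0412), all ITIM receptors, and Cd244, a receptor of NK and myeloid cells that fell (-1.07, 0.0196). Without the block their limma adjusted p ran from 0.0704 to 0.16, and with the block and quantile normalization Clec4a2 (0.0736) and Siglecf (0.0653) no longer passed.

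Among 16 tested activating counterparts 1 rose and 1 fell by limma, and 2 rose and 3 fell in the blocked fit, with a median of 0.06. Cd300lh, of the CD300 family, rose by 1.65 on the log2 scale (limma adjusted p = 0.02), with 3.63 and 4.54 FPKM with R848, against 0.561 and 0.66 FPKM in control. It too was tested through its R848 values, and a pseudocount of 0.1 gave 2.55. Trem2, a DAP12-linked lipid receptor of macrophages, fell by 1.55 on the log2 scale (limma adjusted p = 0.0144). Both calls ended on leaving out the R848 sample of mouse 4050 (0.0918 for Cd300lh and 0.108 for Trem2) or of mouse 4182 (0.207 and 0.129) and after quantile normalization (adjusted p = 0.0632 and 0.0554), and the Cd300lh call also after median log ratio scaling (0.0524). With the block Pilrb1, the activating partner of Pilra, rose as well (0.84, limma adjusted p = 0.0129, and a difference of 0.48 without the control of mouse 4182), and Lilra6 and Cd300lb fell. Of the 29 listed activating genes 20 were matched, and Pira2 and Lilra6 were the Pir genes among them.

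In the shared signalling machinery, Tyrobp, encoding the adaptor DAP12, had a log2 difference of 0.04 and Lyn, a kinase that phosphorylates ITIMs, of 0.25, and neither passed by limma with or without the block. Of 11 tested phosphatases and negative relays 0 passed by limma with or without the block (median -0.12), and 1 was lower at an unadjusted p under 0.05. Among these phosphatases, Ptpn6 and Ptpn11, encoding SHP-1 and SHP-2, had log2 differences of 0.08 and 0.07, and the smallest unadjusted p-values belonged to Inpp4b (-0.76, limma adjusted p = 0.294) and Ptprj (0.48, 0.441).

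Ligands went both ways. Of 14 tested genes 0 rose and 1 fell by limma, and 3 rose and 1 fell with the block (median -0.08). The genes that rose with the block make MHC class I, the ligand of PirB: B2m had a log2 difference of 1.17 (limma adjusted p = 0.132, and 8.3e-04 with the block), H2-K1 of 1.07 (0.13 and 9.4e-04) and H2-D1 of 0.90 (0.12 and 0.00299). Fn1, fibronectin, fell to 2.28 and 0.493 FPKM with R848, against 34.7 and 12.7 FPKM in control (log2 difference -3.32, limma adjusted p = 0.0231). That call ended after quantile normalization (0.106), after median log ratio scaling (0.0847) and on leaving out either R848 sample (0.231 without mouse 4182 and 0.0788 without mouse 4050). Of 18 tested genes of sialic acid synthesis and transfer, which make the ligands of Siglecs, 0 passed by limma (3 had a negative difference with an unadjusted p under 0.05), while 1 fell in the blocked fit (median -0.19). That gene was St8sia4, a polysialyltransferase (-0.66, limma adjusted p = 0.0392), and it did not pass with the block after quantile normalization (0.0596) or median log ratio scaling (0.0787). Its difference was -0.34 without the control of mouse 4182. The smallest unadjusted p-values were those of Nanp (-1.02, limma adjusted p = 0.186) and St3gal2 (-0.61, 0.267).

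**Figure D4:**
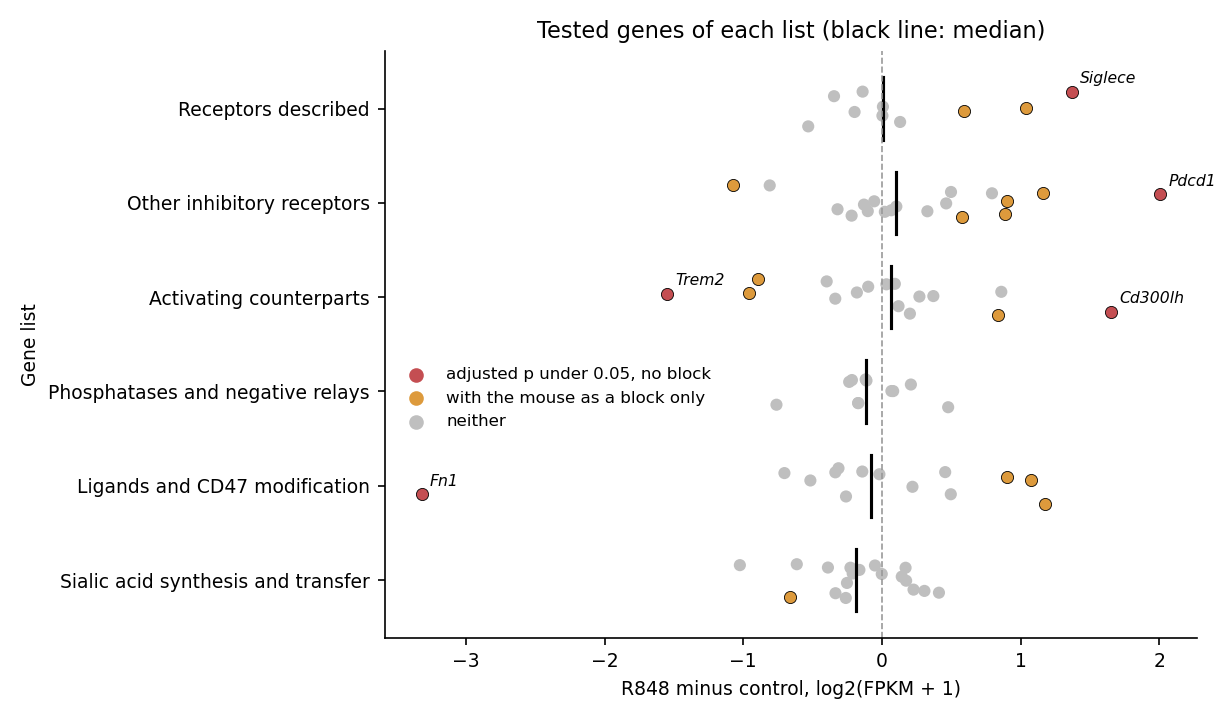
R848 minus control on the log2(FPKM + 1) scale for every tested gene of 6 lists, with red for genes past an adjusted p of 0.05 by limma, orange for those past it only with the mouse as a block, and a black line at the list's median. The medians lay between -0.19 and 0.10, and the called genes were Siglece, Pdcd1, Cd300lh, Trem2 and Fn1.

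Over the 4 samples, genes whose centred log2 values lay near those of Siglece, among 12611 others, included Procr (Euclidean distance 0.117) and Mefv (0.174), with log2 differences of 1.31 and 1.34. Nearest to Cd200r1, the lowest difference of the set, were Galnt6 (0.0287), Utrn (0.046) and Klf9 (0.0507), with differences of -0.54, -0.50 and -0.54. With 4 samples from 2 mice this likeness is a description.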

How the data were processed

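RNA sequencing measured gene expression in 4 samples of leukaemic spleen cells, R848 and control from each of 2 mice. Per the labels' protocols, thawed cells recovered for 24 hours in 20% serum, and ribosomal depletion and a stranded poly(A) kit are both named, so the RNA fraction is unclear. Kallisto and mm10 are named, without versions, per the submitters' processing notes. The authors deposited log2 values named log2 FPKM, per the file name. The lowest was 0, so log2(value + 1) was undone, and the linear sums are near those of TPM. The table holds no counts, so depth and counting error are unknown.

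Dropping 27 rows with date-like names and 91 repeats of 90 symbols (highest mean kept) left 28074 symbols. Those averaging 1 FPKM or more were tested with limma 3.58.1 (R 4.3.3) on the log2(FPKM + 1) scale, using a trended prior (5.27 prior and 2 residual degrees of freedom), two-sided, with Benjamini-Hochberg adjustment over 12612 genes at 0.05. Per the labels the mouse number marks the same animal, so the numbers pair the samples, and same-mouse deviations from the group means had a correlation of 0.289 over genes. The comparison was fitted without a block, and blocked values stand beside results whose call they change. Whether the samples vary beyond these 2 animals is not covered by the p-values.

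The members and the gene lists (6 pathway and 13 marker lists, 228 distinct genes, 6 matched by an older symbol and 11 not matched) were chosen with earlier results of these data known. Named are all 10 members, from each pathway list up to 3 called genes per direction (or the 2 smallest p), and the 3 nearest genes, except for some genes that are not reported here. Other genes named, which include Lilra6, Cd300lb, Siglecf, Pilra, Pilrb1, Cd72, Clec4a2, Cd244, St8sia4, B2m, H2-K1 and H2-D1, were chosen after their values were seen. Coordinates came from GENCODE M21 (GRCm38), promoters and older symbols from RefSeq (GRCm38.p6), and figures from matplotlib 3.10.9. On simulated data for R848 against control over 12612 genes, the fit without a block recovered 76.1% of 67 genes with a log2 change of 1 and 100% of 67 with a change of 2, with 26 false calls among 210. The blocked fit, which has 1 residual degree of freedom, recovered 92.5% and 100% of as many genes at these changes. It made 32 false calls among 227. In both fits the share of false calls lay above the adjusted p threshold of 0.05. These percentages do not rank the fits, since it is not shown that both met the same simulated data.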

Additional observations from a re-analysis of the deposited data

How the results depend on the processing

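Genes higher with R848 numbered 185 by limma, and 0 with no filter, 76 after quantile normalization, 93 after median log ratio scaling, 429 with the mouse as a block, and 354 and 409 with the block and those scalings. Genes lower numbered 48, and 0, 12, 16, 240, 136 and 151 under the same settings. With no filter 1880 of 21710 genes tested had an unadjusted p under 0.05 by limma, both directions counted. Leaving out each sample gave 46 to 259 higher and 10 to 136 lower, the fewest higher without the R848 sample of mouse 4182. Of the 10 members, 1 was higher, and 0 with no filter or either scaling (3 at an unadjusted p under 0.05 by limma each time), 3 with the block, 2 with the block and quantile normalization, 3 with the block and median log ratio scaling, and 0 to 1 on leaving out each sample. No member was called lower by limma under any of the 13 alternatives (0 to 3 at an unadjusted p under 0.05). Siglece kept its call in 6 of 13, among them all 3 with the block. Siglec1 passed in 4 of the 12 that could test it (a filter of 5 FPKM removed it), and Pirb in 2 of 13. Signs turned for Sirpa (-0.024 after quantile normalization with or without the block, and -0.24 to 0.25 on leaving out each sample), Cd47 (-0.0447, and -0.20 to 0.21) and Cd300lf (-0.60 to 0.21 on leaving out each sample). The cause was not tested. For 26 other genes followed across the settings no sign turned. These 26 were chosen by their values in the same data, so this does not show how stable the signs of other genes are. Unknown depth limits what can be said of Siglec1, Cd200 and other genes of a few FPKM.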
